A study of Mus musculus with 10 samples.

Results

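Stromal cells of the bone marrow keep hematopoietic stem cells (HSCs) in place and alive through a small set of secreted and surface-bound proteins, and 5 of these were followed here: Cxcl12, Kitl, Il7, Angpt1 and Vcam1. They were taken by gene symbol from a table of 15078 genes, and all 5 were present and passed the filter on low values. Each was compared across 10 RNA-seq libraries of sorted mouse stromal cells, and the factors were ranked and set against each other within each library. The comparisons address whether marrow stromal cells of a transplanted bone, labelled by a reporter used to trace periosteal cells, carry the niche factors of ordinary marrow stroma.

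In the bone marrow, perivascular mesenchymal cells are the main source of CXCL12, the chemokine that retains HSCs through its receptor CXCR4, and of KIT ligand (Kitl, stem cell factor), the growth factor that HSCs need for survival. The same cells make interleukin 7 (Il7), which supports lymphoid progenitors, and display VCAM1, an adhesion molecule that blood cells bind through integrins containing the Itga4 subunit. Angiopoietin 1 (Angpt1) acts on the receptor TIE2 (gene Tek), best known from the vessel wall. The periosteum, the fibrous sheath around the bone, is known as a source of bone-forming stem cells rather than as a site of blood formation.

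Cells of 3 groups were sorted from adult mice, all as CD45-, Ter119-, CD31-, CD51+ and CD200+. Graft BM-MSCs (4 libraries) came from the marrow of femurs of transgenic (POSTN-CRE) donors carrying Postn Cre-ER and a tdTomato reporter, placed under the skin of wild-type hosts. The hosts were given tamoxifen shortly after surgery and the femurs were taken 5 months after transplantation, when cells that were also Tomato+ were sorted. BM-MSCs (3 libraries) and P-SSCs (3 libraries) came from the marrow and the periosteum of Wild-type mice that the labels give as host at steady state with no treatment, and BM-MSC 2+4 and P-SSC 2+5 each joined the RNA of a pair of mice. The Cre is under the promoter of Postn, a gene that osteoblasts and fibroblasts are also known to express, and which cells recombined was not measured in these libraries. The transgene, tamoxifen, transplantation, the 5 months in the host and the Tomato gate were shared by all graft libraries and are labelled for no other library. Their contributions to a graft difference cannot be told apart.

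Values are the deposited normalized read counts. Depth ran from 15415421 to 25223295 reads a library and 1 read was worth 0.565 to 1.27 on this scale. The graft libraries detected 9308 to 11674 genes against 12217 to 13341 in the other 6. The libraries also fell into a GC split: in the 4 graft libraries and P-SSC 4 the 51 genes of over 65% GC stood 1.52 to 2.80 (log2) above genes of 50 to 60% GC, relative to each gene's mean, and in the other 5 the same difference was -1.81 to -1.51. No GC class therefore held both graft BM-MSCs and BM-MSCs, and values within a class are given for the 5 factors. The marrow stroma markers Lepr, Adipoq, Pdgfra and Pdgfrb summed to 78646 to 119344 in graft BM-MSCs, 118373 to 161582 in BM-MSCs and 13392 to 25933 in P-SSCs, and the periosteum markers Postn, Ctsk and Fmod to 6648 to 11347, 8575 to 14410 and 74051 to 111157. Not every marker ran with its list. Pdgfra was 2161 to 2865 in graft BM-MSCs, 3487 to 5733 in BM-MSCs and 6193 to 14223 in P-SSCs, and passed as lower in graft BM-MSCs than in P-SSCs. Ctsk overlapped across the groups, at 5010 to 9680, 3375 to 5411 and 5001 to 8116 in the same order. The 8 hematopoietic markers summed to 5114 to 75619 in graft BM-MSCs and 35260 to 103130 in BM-MSCs, but to 154 to 625 in P-SSCs, with S100a8, S100a9 and Hbb-bs the most abundant. Of the 8, 3 passed as higher in graft BM-MSCs than in P-SSCs and 4 as lower in P-SSCs than in BM-MSCs. Over all genes tested, 6.08% were called higher in the first comparison and 4.58% lower in the second. Ptprc (CD45), which the sort removes, ranged from 0 to 196 in the marrow libraries and was at 0 in the P-SSC libraries. These markers were thus higher in the same libraries as the niche factors, and their part in the niche factor differences was not tested.

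Among the 5 factors, only Cxcl12 and Kitl had an entry in the RefSeq promoter table used here (GRCm38.p6, plus strand for both). Their sequences are shown for that reason. The Cxcl12 stretch is the 250 bases before the RefSeq start, chr6:117168285-117168534, upstream of all annotated transcripts of the gene. For Kitl the last 30 bases before the start are given, chr10:100015791-100015820, with the only motif match in capitals. This stretch lies inside the annotated span of Kitl, since another annotated transcript starts farther upstream.
Cxcl12: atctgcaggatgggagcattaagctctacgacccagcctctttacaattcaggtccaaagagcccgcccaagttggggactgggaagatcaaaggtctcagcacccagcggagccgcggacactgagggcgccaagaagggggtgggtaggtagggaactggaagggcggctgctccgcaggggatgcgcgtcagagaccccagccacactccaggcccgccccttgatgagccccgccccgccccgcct
Kitl: agctgTATAAAaagcgctggcggcgcagca
The windows of 250 bases were GC-rich, at 64.4% for Cxcl12 and 69.2% for Kitl against a median of 52.4% over all 32851 promoters. The Kitl window held TATAAA 25 to 20 bases before the start, a match that 12.4% of promoters have. Searched on both strands, the letters CCCNNGGG (EBF, in 11.8% of promoters), TTGCNNAA (C/EBP, 9.56%), TGTTTNC (forkhead, 17.8%), GGGNNTTCC (NF-kB, 4.98%) and ACGTG (hypoxia response, 16.6%) were in neither window.

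Cxcl12 (ENSMUSG00000061353, 6:117168535-117181367 in the GRCm38 annotation) was the most abundant of the 5 in every library. Its normalized read count was 596085, 628564, 736781 and 560618 in graft BM-MSCs 1 to 4, 995477, 743661 and 846329 in BM-MSCs 1, 2+4 and 3, and 7751, 4301 and 3503 in P-SSCs 1, 2+5 and 4. The 7 marrow libraries lay far above the periosteal ones, the lowest of them 72.3-fold over the highest P-SSC library, and the graft libraries all lay below the BM-MSC libraries, although graft 3 and BM-MSC 2+4 nearly met. As a share of reads, Cxcl12 took 3.63% to 5.50% in the marrow libraries and 0.0186% to 0.0369% in P-SSCs, and it was the gene with the highest value in 6 of the 7 marrow libraries. Graft BM-MSCs averaged 630512 ± 76086 (SD over 4 libraries), BM-MSCs 861822 ± 126621 and P-SSCs 5185 ± 2258 (each SD over 3). In limma fitted over all 13644 genes tested, on log2(value + 1), Cxcl12 was higher by 7.003 ± 0.244 (SE, adjusted p = 7.25e-08) in graft BM-MSCs than in P-SSCs. P-SSCs lay below BM-MSCs, with a log2 difference of -7.45 ± 0.26 (adjusted p = 9.14e-08). In bulk RNA, fewer cells that express a gene and less RNA of it per cell cannot be told apart.

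**Figure D1:**
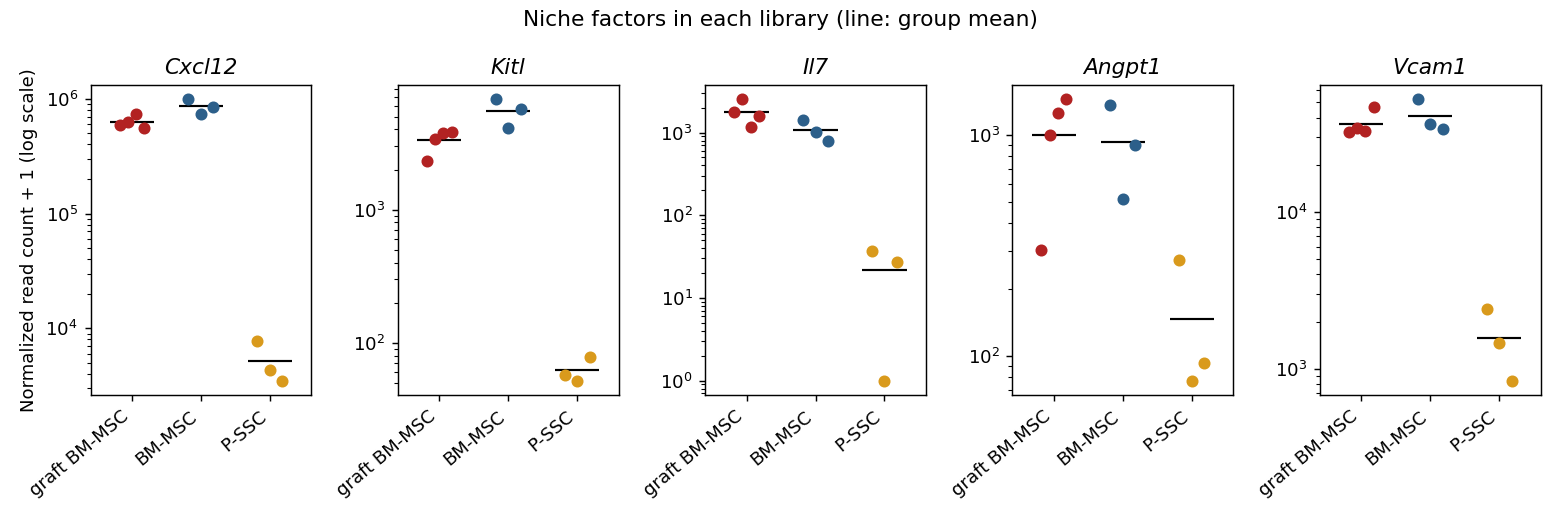
Normalized read count + 1 (log axis, a range of its own in each panel) of the 5 niche factors in each library, by group; points are libraries and the line is the group mean. For each factor the 3 P-SSC libraries lie below the 7 marrow libraries, most narrowly for Angpt1, where graft BM-MSC 1 at 300.0 is close to P-SSC 1 at 271.

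Kitl (ENSMUSG00000019966, 10:100015630-100100416) followed Cxcl12 at a lower level. It measured 2323, 3376, 3764 and 3825 in graft BM-MSCs 1 to 4, 6769.5, 4131 and 5739 in the BM-MSC libraries in the order above, and 56.1, 51.0 and 77.5 in the P-SSC libraries, where it rested on 40 to 80 reads a library. The 3 groups did not overlap, with graft BM-MSCs between P-SSCs and BM-MSCs. The limma difference was 5.73 ± 0.31 (SE) between graft BM-MSCs and P-SSCs (adjusted p = 2.18e-06) and -6.46 ± 0.33 between P-SSCs and BM-MSCs (adjusted p = 2.02e-06). Against BM-MSCs, graft BM-MSCs 1 to 4 held 41.9%, 60.9%, 67.9% and 69.0% of the mean Kitl level.

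Il7 (ENSMUSG00000040329, 3:7569994-7613760) was the factor with the highest mean in the grafts relative to BM-MSCs. Its counts were 1748, 2542, 1169 and 1576 in graft BM-MSCs, 1422, 1016 and 792 in BM-MSCs, and 36.4, 0 and 26.2 in P-SSCs. P-SSC 2+5 had no read of Il7, which at its depth allows a value of up to 3.82 (3 reads, counting error only), while P-SSCs 1 and 4 held 35 and 27 reads. The graft and BM-MSC ranges overlapped, with graft 3 below BM-MSC 1. Graft BM-MSCs exceeded P-SSCs by 7.40 ± 1.07 (SE) on the log2 scale (adjusted p = 0.000833) and P-SSCs differed from BM-MSCs by -6.70 ± 1.14 (adjusted p = 0.00328). The library at 0 sets much of the size of both: without P-SSC 2+5 they were 5.73 and -5.04 and still passed. Il7 shares 105 exon bases with Gm16685, a gene on the opposite strand, and since the strand setting of the counting is not given, reads there cannot be assigned to either.

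Angpt1 (ENSMUSG00000022309, 15:42424723-42676977) varied the most among the marrow libraries. Its counts were 300.0, 994, 1259.8 and 1454 in graft BM-MSCs 1 to 4, 1368, 514 and 899 in BM-MSCs, and 271, 76.4 and 92.1 in P-SSCs. The highest graft library was 4.85-fold over the lowest, compared with 1.31-fold for Cxcl12, and the lowest, graft 1, was 1.11-fold over P-SSC 1. The limma difference was 2.78 ± 0.67 (SE) between graft BM-MSCs and P-SSCs (adjusted p = 0.0153) and -2.78 ± 0.71 between P-SSCs and BM-MSCs (adjusted p = 0.0340), the smallest of the 5 in size in both. Neither call was firm. Without P-SSC 2+5 the adjusted p became 0.0667 and 0.119, and the second call was also lost without BM-MSC 1 (0.145), BM-MSC 3 (0.115) or P-SSC 4 (0.102), and in edgeR (0.0532). With the GC split as a covariate both were lost (0.107 and 0.110). Angpt1 shares 737 exon bases with the opposite-strand gene Gm17473.

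Vcam1 (ENSMUSG00000027962, 3:116109949-116129688), the surface adhesion molecule of the set, was the second most abundant factor. It measured 32241, 34539.8, 32680.0 and 46954 in graft BM-MSCs 1 to 4, 52535, 36259 and 33975 in BM-MSCs, and 2422, 1456 and 840.4 in P-SSCs. The graft and BM-MSC ranges overlapped almost wholly, and the lowest marrow library was 13.3-fold over the highest P-SSC library. Graft BM-MSCs exceeded P-SSCs by 4.65 ± 0.32 (SE) on the log2 scale (adjusted p = 1.46e-05) and P-SSCs differed from BM-MSCs by -4.80 ± 0.35 (adjusted p = 1.89e-05).

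All 5 factors thus passed as higher in graft BM-MSCs than in P-SSCs and did not overlap between these groups. Over all genes tested, 6.08% were called higher and 12% lower in this comparison, and 8.06% were higher without overlap. Ranked by the size of the difference among 13644 genes, Il7 was 75th, Cxcl12 90th, Kitl 167th, Vcam1 291st and Angpt1 1019th from the highest. All 5 were lower in P-SSCs than in BM-MSCs, again without overlap, where 4.58% of genes were called lower, 4.57% higher, and 15.8% were lower without overlap. The P-SSC libraries serve both comparisons, so these results share their data. Within the high-GC class, the lowest graft library exceeded P-SSC 4 by 160-fold for Cxcl12, 29.96-fold for Kitl, 44.7-fold for Il7, 38.4-fold for Vcam1 and 3.26-fold for Angpt1. Within the low-GC class, the 2 P-SSC libraries differed from the 3 BM-MSC libraries by -7.21, -6.64, -7.42, -4.42 and -2.57 on the log2 scale in the same order. With the GC split as a covariate, 3 of 5 passed against P-SSCs, with Il7 at an adjusted p of 0.0537.

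No factor passed between graft BM-MSCs and BM-MSCs, in limma, edgeR, DESeq2 or any other setting tried. One of the 5, Kitl, had an unadjusted p under 0.05 in the limma fit (0.0364, adjusted p = 0.166). In this comparison 2.61% of all genes were called higher and 5.06% lower. The difference was -0.74 for Kitl, with a 95% interval from -1.42 to -0.06, and -0.45 for Cxcl12 (-0.99 to 0.09, adjusted p = 0.279). It was -0.15 for Vcam1 (-0.87 to 0.57, adjusted p = 0.801). For Il7 it was 0.69 (-1.68 to 3.06, adjusted p = 0.710) and for Angpt1 0.00 (-1.47 to 1.48, adjusted p = 1), so that for these genes the intervals were wide. Cxcl12 and Kitl were lower in every graft library than in every BM-MSC library, as were 14.7% of all genes tested.

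**Figure D2:**
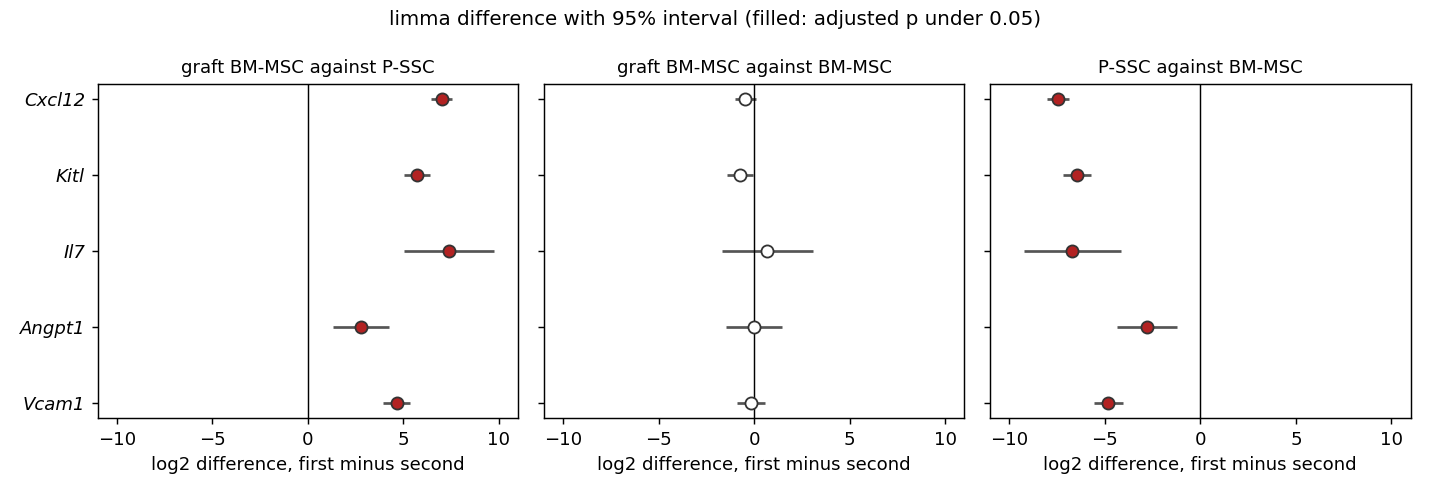
Difference in mean log2(value + 1) between groups for each factor, first group minus second, from limma; the point is the estimate, the line its 95% interval, and filled points passed an adjusted p of 0.05. All 5 are filled on the right for graft BM-MSC against P-SSC and on the left for P-SSC against BM-MSC, and all 5 are open for graft BM-MSC against BM-MSC, from -0.74 to 0.69.

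The direction of the graft differences from BM-MSCs depended on how libraries were brought to 1 scale. In the limma fit the median gene differed by -0.53 between these groups. Relative to it Cxcl12 stood at 0.08, Kitl at -0.21, Vcam1 at 0.38, Angpt1 at 0.53 and Il7 at 1.22. In DESeq2 the median gene differed by only -0.04, and relative to it Cxcl12 stood at -0.41, Kitl at -0.70 and Vcam1 at -0.12. Angpt1 and Il7 stood at 0.15 and 0.75 there. In edgeR the values were -0.05, -0.41, -0.70, -0.12, 0.15 and 0.74 in the same order. After quantile normalization, with a median gene of -0.165, Cxcl12 turned to 0.48 and Vcam1 to 0.26, and after correction for GC content they were 0.17 and 0.06. Kitl was lower in graft BM-MSCs under each of the 22 alternatives, from -1.27 to -0.54, and passed in none. The all-gene calls moved in the same way: 356 higher and 690 lower as deposited, 588 and 435 after quantile normalization, and 619 and 392 after GC correction. Against P-SSCs they were 830 and 1634, 1247 and 1241, and 1244 and 1088. The coding and untranslated exons of Kitl, Il7, Angpt1 and Vcam1 held 39.0% to 40.1% GC and those of Cxcl12 50.7%, against a median of 49.7%.

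Levels of different genes can be compared only per length, and for this each count was divided by the merged exon length (5205 to 8870 bases for the 5) and expressed as ppm, its share of the sum over all genes with a length. Cxcl12 came first, then Vcam1, then Kitl, in all 7 marrow libraries. Mean per-length levels in graft BM-MSCs were 14462 ± 999 for Cxcl12, 783 ± 191 for Vcam1, 106 ± 21.7 for Kitl, 58.4 ± 17.9 for Il7 and 36.1 ± 18.8 for Angpt1 (SD, n = 4). In BM-MSCs they were 16197 ± 3627, 710.2 ± 224, 145 ± 45.2, 29.2 ± 10.4 and 27.8 ± 14.7 (SD, n = 3). The last 2 places changed hands between libraries, since Il7 was above Angpt1 in graft 1, graft 2 and BM-MSC 2+4 and below it in the other 4, and the spreads of Il7 and Angpt1 overlapped in both groups.

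In P-SSCs the order was different and the same in all 3 libraries: Cxcl12, Vcam1, Angpt1, Kitl, Il7. The means there were 92.9 ± 39.6, 25.6 ± 12.5, 4.17 ± 3.03, 1.58 ± 0.63 and 0.58 ± 0.51 ppm (SD, n = 3). Kitl thus went from above Angpt1 in each marrow library to below it in each P-SSC library, and this order in P-SSCs was not tested. Even at this level Cxcl12 ranked between 1027 and 1964 of 15052 genes in P-SSCs, compared with 3 to 7 in graft BM-MSCs and 5 to 10 in BM-MSCs. Kitl ranked 1248 to 1961 in graft BM-MSCs and 9807 to 10230.0 in P-SSCs. Using the longest transcript in place of merged exons left the order of the 5 as it was in every library.

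**Figure D3:**
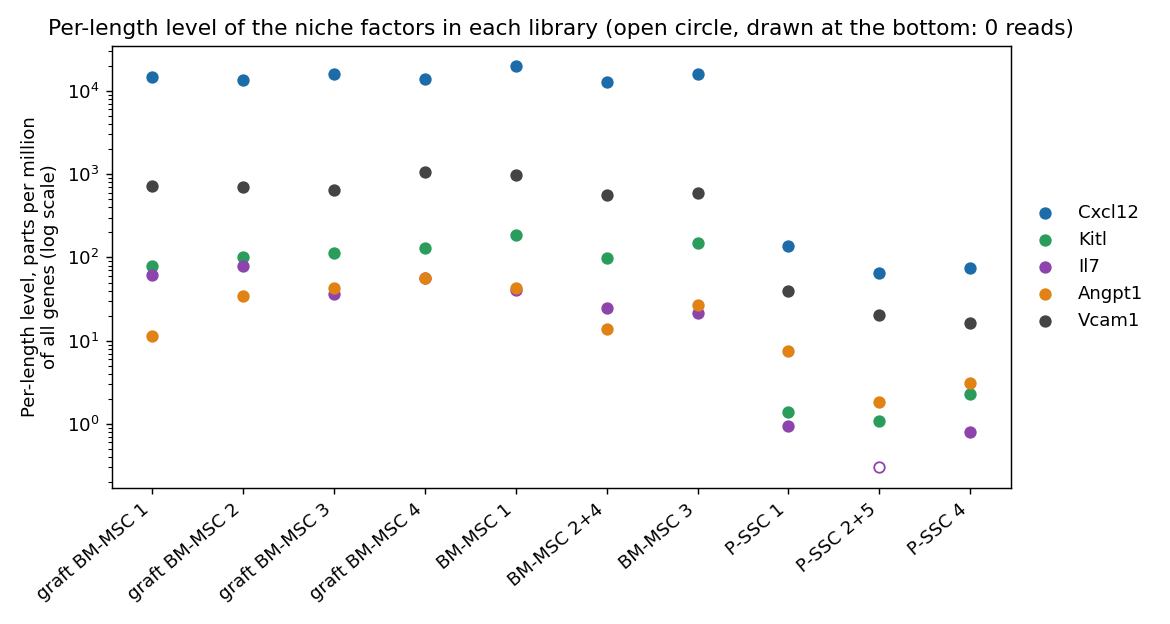
Per-length level (ppm of all genes, log axis) of the 5 factors in each of the 10 libraries; each point is 1 factor in 1 library, and the open circle marks Il7 in P-SSC 2+5 at 0 reads. Cxcl12 and Vcam1 head each library, Kitl follows in the 7 marrow libraries, and in the 3 P-SSC libraries Angpt1 lies above Kitl.

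Because a ratio of factors within a library does not depend on its size factor, each factor was also set against Cxcl12. Per length, the level of Cxcl12 was 106 to 186 times that of Kitl in graft BM-MSCs, 106 to 130.2 times in BM-MSCs and 32.7 to 99.9 times in P-SSCs. Against Vcam1 it was 13.0 to 24.5 times in graft BM-MSCs, 20.6 to 27.0 in BM-MSCs and 3.20 to 4.52 in P-SSCs. Against Angpt1 it was 245 to 1265 times in graft BM-MSCs, 463 to 922 in BM-MSCs and 18.2 to 35.8 in P-SSCs. The excess of Cxcl12 over these 3 factors was thus smaller in every P-SSC library than in every marrow library. Cxcl12 also had the larger limma difference in both comparisons with P-SSCs, so this restates those differences and is not a separate result. How many other genes show the same was not counted.

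On the log2 scale the ratio to Cxcl12 differed between graft BM-MSCs and P-SSCs by -1.28 for Kitl, -2.35 for Vcam1 and -4.22 for Angpt1, each without overlap. These had p = 0.0571 in a two-sided exact permutation test, the smallest p that 4 against 3 libraries allow, and an adjusted p of 0.171 over the 12 ratio tests. Between P-SSCs and BM-MSCs the same 3 ratios differed by 0.99, 2.65 and 4.67 without overlap (exact permutation p = 0.1, the smallest for 3 against 3, adjusted p = 0.171). No ratio test could therefore reach 0.05, and these ratio differences likewise restate the limma differences. Between graft BM-MSCs and BM-MSCs the ratios of Kitl (-0.29, exact p = 0.229), Vcam1 (0.30, exact p = 0.286) and Angpt1 (0.45, exact p = 0.514) overlapped.

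Il7 behaved differently in this respect. Per length, Cxcl12 was 171 to 437 times the level of Il7 in graft BM-MSCs and 485 to 740.3 times in BM-MSCs, so that every graft library carried more Il7 relative to Cxcl12 than every BM-MSC library. The log2 ratio was higher in graft BM-MSCs by 1.14 (two-sided exact permutation p = 0.0571, adjusted p = 0.171), and by 0.95 to 1.40 with any 1 of the 7 libraries left out. This difference depended on the processing: it was 0.70 after GC correction, 0.28 after quantile normalization and -1.73 with the GC split as a covariate, the last 2 being settings added after the data were seen. Since no GC class held both groups, the covariate value rests on P-SSC 4 against P-SSCs 1 and 2+5. These held 27, 35 and 0 reads of Il7, so that value does not measure the marrow libraries alone. Against P-SSCs the Il7 ratio overlapped in both comparisons (0.39 for graft BM-MSCs, exact p = 0.857, and 0.75 for P-SSCs against BM-MSCs, exact p = 0.8), and the sign of each rested on P-SSC 2+5 or P-SSC 4. Without P-SSC 2+5 the first became -1.18, and without P-SSC 4 the second became -0.21.

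**Figure D4:**
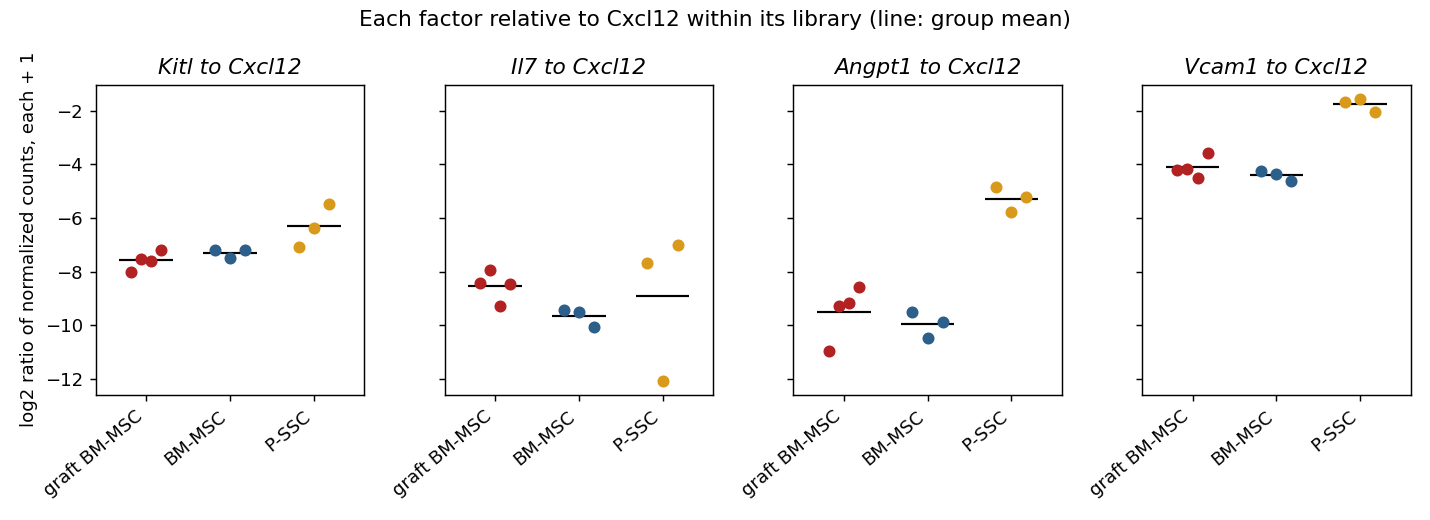
log2 ratio of Kitl, Il7, Angpt1 and Vcam1 to Cxcl12 within each library (each count + 1), by group; points are libraries and the line is the group mean. P-SSCs lie above both marrow groups for Kitl, Angpt1 and Vcam1, and for Il7 the graft libraries (-9.30 to -7.95) lie above the BM-MSC libraries (-10.06 to -9.45), with P-SSC 2+5 at -12.07.

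The receptors and partners of the 5 factors, with other ligands of the niche, were read from lists of 44 genes, of which 39 were tested. In graft BM-MSCs against P-SSCs 8 passed as higher and 6 as lower, in P-SSCs against BM-MSCs 5 as higher and 8 as lower, and in graft BM-MSCs against BM-MSCs 2 as higher and 3 as lower. Their median differences were 0.15, -0.38 and -0.51, beside -0.47, 0.00 and -0.53 over all genes. The shares called over all genes were 6.08% higher and 12% lower, 4.57% and 4.58%, and 2.61% and 5.06%, in the same order, and the listed genes called lower in the grafts lay near them. The 5 calls between graft BM-MSCs and BM-MSCs were not firm, with 0 in edgeR and with the GC split as a covariate, 8 in DESeq2 and 1 to 6 when a library was left out.

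Around Cxcl12, the receptor gene Cxcr4 was low in all libraries (0 to 28.6) and passed in no comparison. Ackr3, the atypical receptor that removes CXCL12, had 47439.7, 49512 and 26254 counts in P-SSCs against 0 to 374 in graft BM-MSCs and 30.6 to 575 in BM-MSCs. Dpp4, the protease that clips CXCL12, had 6347 to 9731 in P-SSCs, while among the marrow libraries only graft 4 had any read of it. Both passed as higher in P-SSCs in both comparisons, opposite in direction to Cxcl12 itself. Cxcl14, another CXC chemokine, was 24951 to 34364 in graft BM-MSCs, above the 1823 to 2867 of BM-MSCs (limma log2 difference 3.68 ± 0.90, adjusted p = 0.0355). It was also above P-SSCs (6.36 ± 0.90, limma adjusted p = 0.000741). The P-SSC values were 124, 131 and 2944, the last in P-SSC 4, the library of the same GC class as the grafts.

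Around Kitl, its receptor Kit was at 0 in the 3 P-SSC libraries and in grafts 2 and 3, at 63.1 to 89.6 in BM-MSCs, and at 218 and 1883 in grafts 1 and 4, and it passed in no comparison. Of the 4 KIT axis genes tested, Csf1, the growth factor of macrophages, passed, as higher in graft BM-MSCs than in P-SSCs (2.01 ± 0.42, adjusted p = 0.00792). Its P-SSC values were 2308, 2049.6 and 8529, again highest in P-SSC 4. Il2rg, a subunit of the IL7 receptor, was 0 to 290.0 in graft BM-MSCs, 151 to 226 in BM-MSCs and 0 to 9.69 in P-SSCs and passed in no comparison. Of the 8 genes tested around Il7, Crlf2, the receptor subunit for the related cytokine TSLP, passed as higher in graft BM-MSCs (340.1 to 711) than in P-SSCs, where it was 17.7, 16.6 and, in P-SSC 4, 159. The kinase gene Jak3 also passed, at 342 to 1149 in graft BM-MSCs and at 43.6, 0 and, in P-SSC 4, 0. Il15, another lymphoid cytokine, was 598 to 981 in BM-MSCs and 67.9 to 162 in P-SSCs and passed as lower in P-SSCs, as did Jak3 and Stat5a. Stat5a, a signal transducer of such receptors, was lower in graft BM-MSCs (315 to 1361.5) than in BM-MSCs (2141 to 3816, -1.91 ± 0.48, adjusted p = 0.0391).

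All 4 genes tested around Angpt1 passed in P-SSCs against BM-MSCs, 1 as higher and 3 as lower, against 4.57% and 4.58% of all genes. Tek, which encodes the receptor of ANGPT1, had 6869, 4820.2 and 3254 counts in P-SSCs, 0 in the 4 graft libraries, and 1.04 in BM-MSC 1 as its only signal among BM-MSCs. It passed as higher in P-SSCs in both comparisons. Angpt2 and Angpt4, the other angiopoietins, ran with Angpt1: Angpt2 was 1036 to 2774 in graft BM-MSCs, 1192 to 1650.0 in BM-MSCs and 83.1 to 203 in P-SSCs, and Angpt4 was 969 to 3559.5, 3794 to 5759 and 191 to 712. These genes passed as higher in the marrow group in both comparisons with P-SSCs. Tie1, an orphan receptor paired with TIE2, was 57.4 to 204 in BM-MSCs and 0 in all other libraries. Of 8 endothelial markers listed, 5 had values, and Pecam1, Kdr and Cldn5 did not. Emcn and Stab2 were at 0 in the graft and P-SSC libraries, and at 24.3 to 81.5 and 0 to 125 in BM-MSCs. In limma Emcn passed as lower than in BM-MSCs in graft BM-MSCs (adjusted p = 0.00256) and in P-SSCs (adjusted p = 0.00101), and Stab2 passed in neither. Esam was 157 to 334 in P-SSCs, 0 to 128 in graft BM-MSCs and 0 to 306 in BM-MSCs. Cdh5 was 2.08 to 58.6 in P-SSCs and 0 in both marrow groups. Egfl7 was 0 to 6.79 in P-SSCs, 0 to 148 in graft BM-MSCs and 0 to 82.8 in BM-MSCs. The markers with values summed to 0 to 275 in graft BM-MSCs, 134 to 456 in BM-MSCs and 178 to 392 in P-SSCs. These sums were below the level of Tek in P-SSCs. Whether endothelial cells were a source of Tek was not tested.

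Of the 7 genes tested around Vcam1, Itgb7, an integrin subunit that pairs with Itga4, passed as lower in graft BM-MSCs (0 to 11.3) than in P-SSCs (265 to 1107). Itga4, the subunit of the main VCAM1 receptor, was 0 to 119 over all libraries, and Itgb1, its usual partner, was 1121 to 8316. Neither passed in any comparison.

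Among 12 other niche ligands, Spp1 (osteopontin) and Bmp4 followed the 5 factors, with 94473 to 158923 and 3718 to 5952 in graft BM-MSCs, 211157 to 384182 and 6627 to 9223 in BM-MSCs, and 13125 to 20537 and 1041 to 1372 in P-SSCs. Spp1 was also lower in graft BM-MSCs than in BM-MSCs (-1.05 ± 0.25, adjusted p = 0.0329). Il6, an inflammatory cytokine, ran the other way, at 487 to 2488 in P-SSCs, 13.6 to 46.4 in BM-MSCs and 97.2 to 895 in graft BM-MSCs, and passed as higher in graft BM-MSCs than in BM-MSCs (3.66 ± 0.88, adjusted p = 0.0322). Angptl2 and Thpo passed as lower in graft BM-MSCs than in P-SSCs. Thpo, a cytokine that maintains HSCs, was at 0 in all 7 marrow libraries and at 15.6 to 101 in P-SSCs.

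**Figure D5:**
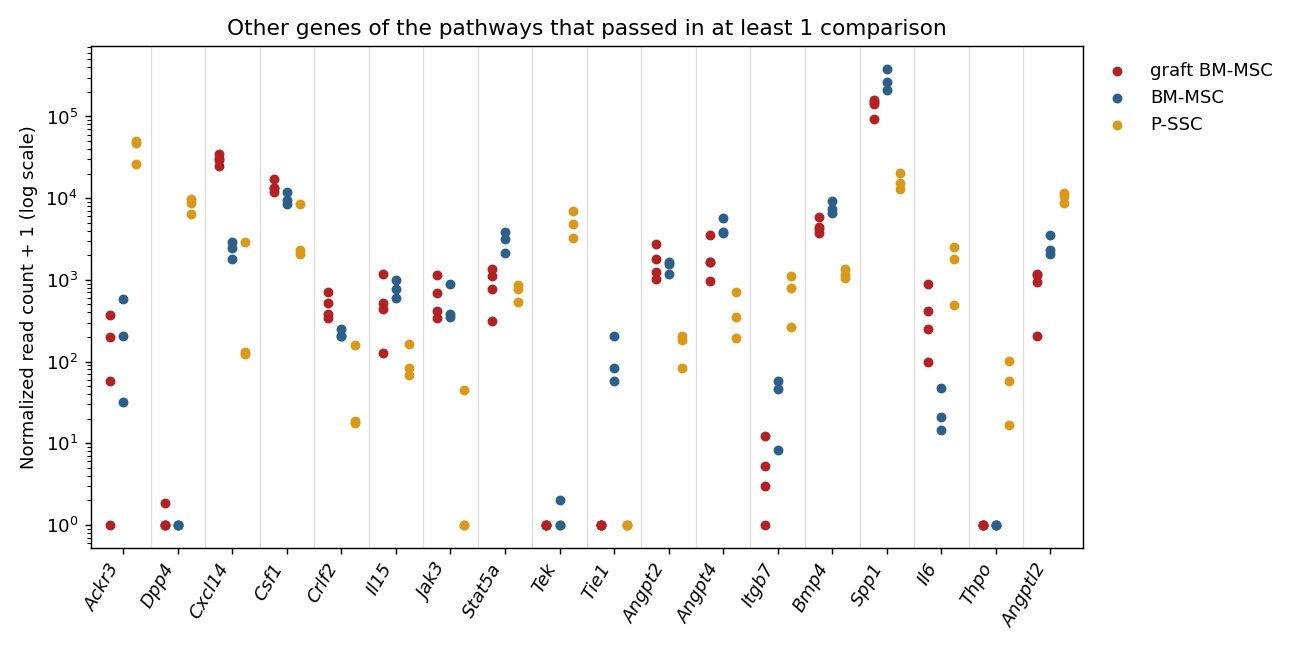
Normalized read count + 1 (log axis) of the 18 listed receptors, partners and other ligands that passed in at least 1 comparison; each point is a library, colored by group. Tek, Dpp4 and Ackr3 are high in P-SSCs, whereas Angpt2, Angpt4, Bmp4 and Spp1 are high in both marrow groups, and Cxcl14 is highest in graft BM-MSCs.

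Of 4 transcription factors listed as regulators of niche stroma, Foxc1 and Ebf3 passed in both comparisons with P-SSCs. Foxc1 drives the CXCL12-abundant reticular cell program, and Ebf3 keeps the same cells from turning to bone. Both were higher in graft BM-MSCs than in P-SSCs, where 6.08% of all genes tested were called higher. Both were lower in P-SSCs than in BM-MSCs, where 4.58% were called lower. Foxc1 was 3242 to 5795 in graft BM-MSCs, 263 to 392 in BM-MSCs and 5.10 to 128 in P-SSCs, and was also higher in graft BM-MSCs than in BM-MSCs (3.85 ± 0.88, adjusted p = 0.0269). The P-SSC values of Foxc1 were 9.35, 5.10 and, in P-SSC 4, 128, so that it was higher in the library of the grafts' GC class, and group and GC class cannot be told apart for the graft call against BM-MSCs. Ebf3 was 565 to 1914, 303 to 551 and 5.10 to 41.7. The other 2 passed in no comparison.

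The genes whose pattern over the 10 libraries was closest to each factor were found by the root mean square difference of mean-centred log2 values, among 9546 genes with a mean of at least 100. For Cxcl12 they were Gm16685 (0.63), Kitl (0.68) and Cd1d1 (0.68), and for Kitl they were Cd1d1 (0.44), Tmem176a (0.52) and Lepr (0.61), the leptin receptor that marks marrow stroma. For Vcam1 they were St3gal6 (0.33), Mme (0.37) and 1500009L16Rik (0.39), for Il7 Plppr3 (0.51), Akr1c19 (0.59) and Tifa (0.72), and for Angpt1 they included Ptgfr (0.55) and Rcsd1 (0.58). Among the 5 themselves Cxcl12 and Kitl were the closest pair, and Il7 and Angpt1 the farthest (2.37). Gm16685 was at 0 in every P-SSC library, so the size of its drop there rests on the 1 added before the log. Plppr3, Akr1c19 and Tifa were at 0 in P-SSC 2+5, as was Il7, and part of their likeness rests on that library. The points share their libraries, so these are descriptions of this set of 10.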

How the data were processed

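RNA of sorted cells was made into poly-T selected libraries, and the table the authors deposited holds normalized read counts (a signal, reads divided by DESeq2 size factors) for 15078 genes. The submitters' notes name FastQC 0.11.5, cutadapt 1.15, STAR 2.5, Subread 1.4.6 and DESeq2 1.26.0 with GRCm39, whereas the study's methods name GRCm38. The strand setting of the counting is not given in the sources used here. All values, 100% at a tolerance of 0.001, were whole multiples of 1 read's worth, so reads could be recovered. On these reads edgeR 4.0.16 called 589 genes higher and 942 lower in graft BM-MSCs against P-SSCs, and DESeq2 1.42.0 called 1210 and 1709.

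The 13644 genes whose mean value reached 10 were tested on log2(value + 1) with limma 3.58.1 (trend, all 10 libraries, R 4.3.3), two-sided, with Benjamini-Hochberg adjustment over all of them and a threshold of 0.05. Fold changes on this scale understate low genes. Within-library ratios were tested by exact permutation (scipy 1.17.1), adjusted over 12 tests. Lengths, GC content (of the longest transcript) and coordinates were from GENCODE M21 (GRCm38), where 15052 IDs matched. Nothing in the labels ties libraries to litters or days, so p-values measure the spread between these libraries. Fits were tested on simulated data.

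The members and gene lists were chosen with earlier results of these data known. Named genes were the 5 factors, listed genes that passed in at least 1 comparison or are receptors of a factor, and the 3 genes most like each factor. One of the latter is not reported here. Alternatives covered pseudocounts of 0.1 and 5, filters, scaling, GC content, the GC split as a covariate, 2-group fits, edgeR, DESeq2, each library left out and replicate numbers as a block.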

Additional observations from a re-analysis of the deposited data

Results flagged for a closer look

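Among the 27 sets of graft values examined for a library apart from the other 3, 2 exceeded Dixon's 95% critical value, and chance gives about 1 in 20. Vcam1 in graft BM-MSC 4 (46954 against 32241 to 34539.8) had a gap of 0.844 of the range. Dpp4 in graft BM-MSC 4 had a gap of 1, from a single read (0.863) where the other 3 had none.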

How the results depend on the processing

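Of the 5 factors, 0 passed between graft BM-MSCs and BM-MSCs under all 22 alternatives. Against P-SSCs the count was 4 to 5 with any 1 library left out, in both comparisons, and fell to 3 in graft BM-MSCs with the GC split as a covariate. The factor lost on leaving out a library was Angpt1.

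Signs of differences that passed no test between graft BM-MSCs and BM-MSCs turned as follows. Cxcl12 became 0.48 after quantile normalization, 0.17 after GC correction and 0.27 with the GC split as a covariate, and Vcam1 became 0.26, 0.056 and 1.01. Il7 became -1.46 with the GC split. Angpt1, at 0.00, became -0.16 under median centring and -0.022 under quantile normalization. Angpt1 ran from -0.25 to 0.51 without 1 graft library and from -0.37 to 0.34 without 1 BM-MSC library, and Vcam1 from -0.28 to -0.096 and from -0.27 to 0.043. The Il7 to Cxcl12 ratio against P-SSCs became -0.49 with a pseudocount of 5 and -0.12 after GC correction, and ran from -1.18 to 1.35 without 1 library. Between P-SSCs and BM-MSCs it became -0.39 with a pseudocount of 0.1 and ran from -0.21 to 2.32 without 1 P-SSC library and from 0.56 to 0.86 without 1 BM-MSC library. With the longest transcript as length, the median per-length rank of Vcam1 moved from 201.5 to 99.5 in graft BM-MSCs and from 237 to 122 in BM-MSCs. The Vcam1 ratio between graft BM-MSCs and BM-MSCs became -0.12 after GC correction. Of 2 settings added for the ratios after the data were seen, quantile normalization turned the Vcam1 and Angpt1 ratios between graft BM-MSCs and BM-MSCs to -0.22 and -0.50 and the Il7 ratio between P-SSCs and BM-MSCs to -0.40. The GC split as a covariate turned the Il7 ratio to -1.52 in graft BM-MSCs against P-SSCs, -1.73 against BM-MSCs and -0.21 in P-SSCs against BM-MSCs.

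The listed pathway genes passing between graft BM-MSCs and BM-MSCs, 5 as reported, numbered 3 with a filter at a mean of 100, median centring or GC correction, 2 in the 2-group fit, 0 in edgeR or with the GC split, and 8 in DESeq2. They numbered 1 to 6 without 1 library, with 1 without BM-MSC 1 or 2+4, 2 without BM-MSC 3 or graft 2 or 3, and 3 without graft 1 or 4, P-SSC 1 or P-SSC 2+5. Between P-SSCs and BM-MSCs the 2-group fit gave 20. The cause of these shifts was not tested.

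Same-numbered libraries had correlations of -0.02 to 0.03 in their deviations from group means. In this check and in the block fit, BM-MSC 2+4 and P-SSC 2+5 counted as numbers of their own. Pairs that share 1 number of a joined library ran from -0.07 (BM-MSC 2+4 with P-SSC 4) to 0.08 (BM-MSC 2+4 with P-SSC 2+5). Whether the numbers pair the libraries therefore cannot be settled here. With the number as a block (2 residual degrees of freedom) 4 factors passed in graft BM-MSCs against P-SSCs and 2 in P-SSCs against BM-MSCs, the pathway counts were 4, 0 and 1, and Angpt1 between graft BM-MSCs and BM-MSCs was -0.43. Depth limits Kitl and Il7 in P-SSCs, which rested on 0 to 80 reads a library.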

Other observations

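Gm16685, annotated on the strand opposite Il7, had 181, 303, 492 and 112 counts in graft BM-MSCs 1 to 4, 286, 156 and 239.7 in BM-MSCs, and 0 in the 3 P-SSC libraries. Gm17473, opposite Angpt1, had 254 and 518 in grafts 1 and 2 but 0 in grafts 3 and 4, 86.5 to 139.9 in BM-MSCs, and 0 to 10.4 in P-SSCs. The order of the graft libraries in Gm17473 was not that of Angpt1, which was lowest in graft 1.

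Postn, the gene whose promoter drives the Cre, was at 0 in grafts 1, 2 and 3 and at 235 in graft 4, compared with 3757 to 5041 in BM-MSCs and 16558 to 24829 in P-SSCs. The osteoblast markers Bglap, Bglap2, Ibsp, Col1a1 and Dmp1 summed to 63915 to 95414 in graft BM-MSCs, 578844 to 1261400.0 in BM-MSCs and 191186 to 427786 in P-SSCs, and Col1a1 and Ibsp passed as lower in graft BM-MSCs than in BM-MSCs. The chondrocyte markers summed to 6053 to 14336 in graft BM-MSCs, 33423 to 74150.1 in BM-MSCs and 7839 to 17797 in P-SSCs. The mural markers summed to 55.4 to 3554, 417 to 7529 and 9658 to 27157, and the macrophage markers to 0 to 359, 106 to 833 and 21.8 to 113. The sort markers Itgav and Cd200 summed to 2573 to 3962, 2058 to 3507 and 1781 to 2467 and passed in no comparison.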
